A study of Mus musculus with 35 samples.

Results

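The 146 genes described here encode the potassium, sodium and calcium channel families and the TRPC, TRPM and TRPV cation channels of the mouse. They are every gene on the array whose probe sets carried a single symbol starting with Kcn, Scn and a digit, or Cacn, or naming a Trpc, Trpm or Trpv channel, out of 19937 genes in all. Membership was set by the symbols, although the families were picked with earlier results of these data known. The 7 genes with more than 1 probe set were read from the probe set of highest mean over these samples. The members comprised 35 voltage-gated potassium channel pore subunits, 15 inward rectifiers, 14 two-pore domain potassium channels, 8 calcium- or sodium-activated potassium channels and 17 potassium channel accessory subunits. They further comprised 8 sodium channel alpha and 3 beta subunits, 10 calcium channel pore and 14 accessory subunits, 5 Trpc, 8 Trpm and 6 Trpv genes, and 3 non-coding transcripts from the strand opposite a potassium channel gene.

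The study sorted cells of the fourth mammary glands by flow cytometry into 6 subpopulations and profiled each on Affymetrix arrays after NuGEN amplification. The parous group was mated at an age of 42 days, nursed for 21 days and was left for 40 days of involution, when the secretory tissue regresses. Age-matched virgins, called nulliparous here, were the controls, and no strain, allele or other treatment was named in the labels. The subpopulations were stromal cells, total epithelial cells, basal CD49f-high and basal CD49f-low cells, and luminal Sca1-positive and luminal Sca1-negative cells. Each sample pooled 5 mice and was labelled a biological replicate, 3 for each subpopulation and history except parous basal CD49f-high cells with 2, for 35 samples in 12 groups. RNA came from 10000 sorted cells, or from 2000 in the basal CD49f-high samples.

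Ion channels set the membrane potential and carry the potassium, sodium, calcium and magnesium fluxes that drive secretion and contraction. In the mammary gland, basal cells include the contractile myoepithelium that ejects milk, and luminal cells line the ducts and secrete it. A channel is often built from a pore-forming subunit and accessory subunits that alter its gating or bring it to the cell surface.

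All levels are the log2 expression values deposited by the authors, and every difference is a difference of log2 values, so that 1 unit is a doubling. Adjusted p-values come from limma with Benjamini-Hochberg adjustment over all 19937 genes, and a gene was called at an adjusted p under 0.05. Only values of the same probe set are compared. The basal, pan-luminal and fibroblast marker lists followed the sort labels. All 10 basal and myoepithelial markers were higher in basal than in luminal samples, 10 of 11 pan-luminal markers were lower, and all 10 fibroblast markers were higher in stromal than in total epithelial samples. In sorted bulk samples, fewer cells of a type and less RNA per cell cannot be told apart.

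The 250 bases before the annotated start of 5 members are printed because these genes carried the widest contrasts described below. Scn7a, Cacna2d1 and Kcnmb1 had the largest rises in basal against luminal cells, Trpc6 had the largest fall, and Trpm6 had the largest fall with parity. The sequences are those of RefSeq on GRCm38.p6, written 5′ to 3′ along the strand of the gene. Capitals mark a CArG box, the site of serum response factor in smooth muscle promoters, or GGGCGG, read on either strand.
Scn7a: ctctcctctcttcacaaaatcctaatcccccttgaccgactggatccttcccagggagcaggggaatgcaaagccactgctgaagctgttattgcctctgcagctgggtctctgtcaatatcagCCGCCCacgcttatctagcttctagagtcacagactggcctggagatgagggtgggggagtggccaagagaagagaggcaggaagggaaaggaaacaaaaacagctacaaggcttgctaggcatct
Cacna2d1: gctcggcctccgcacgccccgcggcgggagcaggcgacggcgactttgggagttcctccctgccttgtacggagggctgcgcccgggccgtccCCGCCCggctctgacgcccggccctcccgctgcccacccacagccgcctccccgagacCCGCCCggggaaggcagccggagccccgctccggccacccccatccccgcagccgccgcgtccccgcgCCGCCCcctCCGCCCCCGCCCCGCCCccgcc
Kcnmb1: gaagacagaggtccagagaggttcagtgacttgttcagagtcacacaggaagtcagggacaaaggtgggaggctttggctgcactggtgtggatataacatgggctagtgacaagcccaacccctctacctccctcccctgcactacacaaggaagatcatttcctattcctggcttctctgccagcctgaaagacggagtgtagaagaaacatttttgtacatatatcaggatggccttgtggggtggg
Trpc6: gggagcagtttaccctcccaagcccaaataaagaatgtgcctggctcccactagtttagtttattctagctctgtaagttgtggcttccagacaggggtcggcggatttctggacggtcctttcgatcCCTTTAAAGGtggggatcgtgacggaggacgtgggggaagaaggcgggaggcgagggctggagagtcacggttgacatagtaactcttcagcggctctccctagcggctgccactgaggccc
Trpm6: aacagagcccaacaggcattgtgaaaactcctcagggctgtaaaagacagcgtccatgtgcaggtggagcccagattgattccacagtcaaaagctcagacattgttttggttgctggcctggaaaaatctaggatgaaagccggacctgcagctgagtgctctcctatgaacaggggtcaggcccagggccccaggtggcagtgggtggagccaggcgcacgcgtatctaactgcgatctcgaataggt

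The Scn7a window is chr2:66784911-66785160 on the minus strand, with 3 CpG dinucleotides and 1 GGGCGG match. The Cacna2d1 window is chr5:15934441-15934690 on the plus strand, with 36 CpG dinucleotides, 82.4% GC and 6 GGGCGG matches, of which the last pair share a base. The Kcnmb1 window, chr11:33962763-33963012 on the plus strand, had 1 CpG and none of the motifs searched. The Trpc6 window, chr9:8543892-8544141 on the plus strand, had 12 CpG dinucleotides and 1 CArG box at position -122 from the gene start. The Trpm6 window, chr19:18749480-18749729 on the plus strand, had 7 CpG dinucleotides and none of the motifs. The motifs searched were the CArG box, the GC box GGGCGG, the TATA box TATAAA and the E-box CACGTG, on both strands with overlapping matches included. Of 32851 mouse promoters of the same length, 1.5% held a CArG box, 32.7% a GC box, 12.4% a TATA box and 6.0% an E-box. The median promoter had 6 CpG dinucleotides and 52.4% GC. The Cacna2d1 window held the most CpG dinucleotides of these 5, and no motif was found in all of the basal-high genes Scn7a, Cacna2d1 and Kcnmb1. Both the windows and the motifs were picked with the expression values known, and a match describes the letters only.

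The means of the 6 subpopulations spanned less than 0.5 log2 units in 106 members, which is 72.6% of the members against 60.5% of all genes. They spanned 1 unit or more in 24, which is 16.4% of the members against 16.6% of all genes. Among stromal, basal and luminal samples 57 members (39.0%) differed, where 51.6% of all genes did. The map of the 24 widest-ranging members orders its rows by the subpopulation in which each gene is highest, so its blocks come from that ordering. They include genes highest in stromal cells, in basal cells and in a luminal subpopulation.

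**Figure D1:**
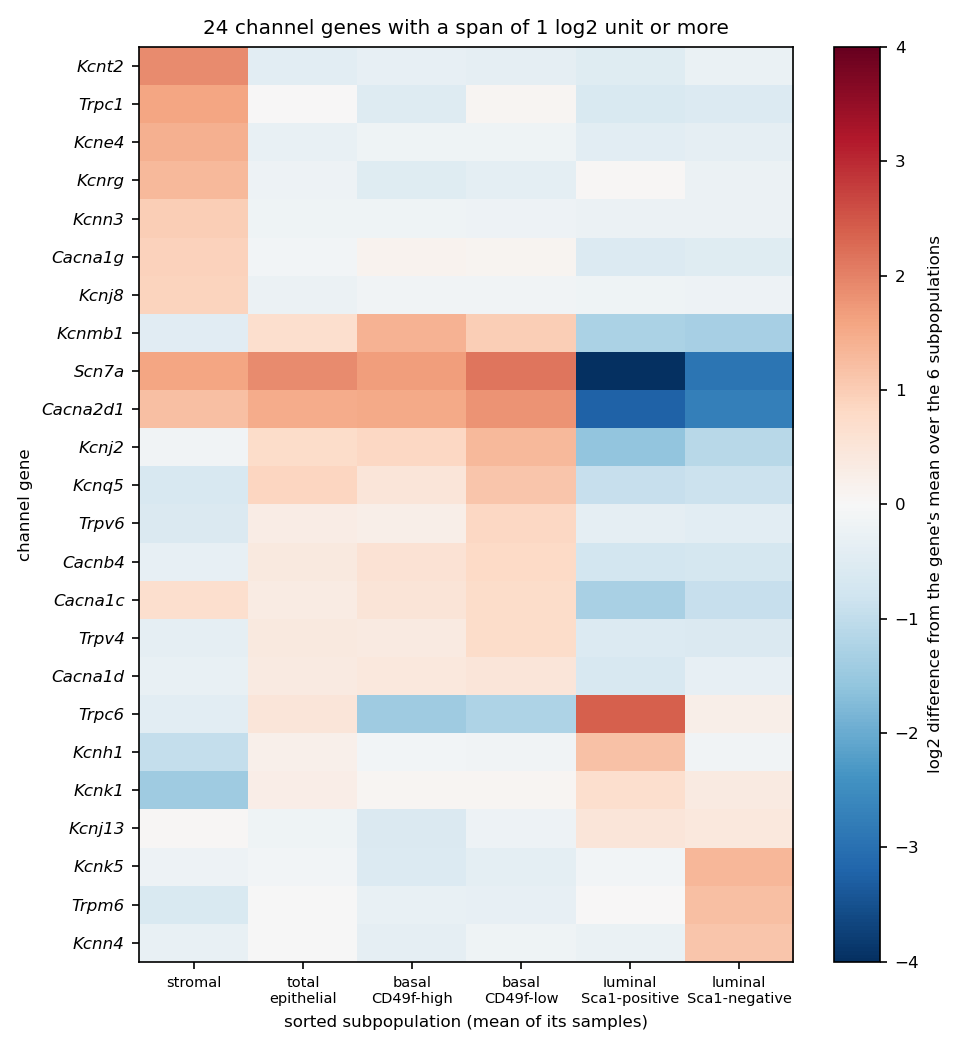
Colour gives the log2 difference of each subpopulation's mean from the gene's own mean over the 6 subpopulations, for the 24 channel genes (rows) whose means span 1 unit or more, with subpopulations in columns. Scn7a and Cacna2d1 are high in every subpopulation except the luminal ones, Trpc6 is highest in luminal Sca1-positive cells, and Kcnt2 in stromal cells.

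Between basal and luminal cells, the widest differences were rises of Scn7a, Cacna2d1, Kcnmb1 and Kcnj2 and a fall of Trpc6 in basal cells. Of the members 34 were called (23.3%), against 35.0% of all genes. The share higher in basal cells was 15.1% of the members (22 genes) and 15.5% of all genes, and the share lower was 8.22% of the members (12 genes) and 19.5% of all genes. In 11 members the 11 basal and 12 luminal samples did not overlap, against 4.67% of all genes. Of those 11, 10 were higher in basal cells, and Trpc6 was lower.

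Scn7a, an atypical sodium channel alpha subunit known as a sodium sensor, had the largest rise. It read 9.45 to 11.74 in basal samples, with a median of 11.37, and 3.99 to 7.65 in luminal samples, with a median of 5.25. The difference was 5.61 (SE 0.19, adjusted p = 6.4e-20). The lowest basal sample, nulliparous CD49f-high replicate 3, still lay above every luminal sample. Of the other 7 sodium channel alpha subunits, Scn1a alone was called, higher in basal cells by 0.14 (SE 0.04, adjusted p = 0.0165).

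Of the calcium channel genes, 3 of 10 pore and 3 of 14 accessory subunits were higher in basal cells and none was lower. Their medians were 0.1 and 0.05, against 0.0 over all genes. Cacna2d1, the alpha2delta subunit that raises the number of calcium channels at the membrane, read 8.21 to 9.66 in basal samples (median 9.44) and 4.21 to 5.49 in luminal samples (median 4.50). The difference was 4.65 (SE 0.15, adjusted p = 2e-20), and a further probe set of the gene gave 9.22 and 9.3 in basal CD49f-high and CD49f-low cells against 4.34 and 4.84 in luminal Sca1-positive and Sca1-negative cells. Cacna1c, the L-type pore subunit of smooth and cardiac muscle, was 1.76 higher (SE 0.11, adjusted p = 5e-14). Cacnb4, a cytoplasmic beta subunit, was 1.48 higher (SE 0.12, adjusted p = 2.2e-11), and Cacna1d, a further L-type pore subunit, 0.95 higher (SE 0.07, adjusted p = 3.4e-12). In these 4 genes every basal sample exceeded every luminal sample. Cacna1g, a T-type pore subunit, and Cacnb1 rose by 0.64 (SE 0.08) and 0.45 (SE 0.08) with overlapping samples.

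Among potassium channels, the basal rise fell on a few genes of different classes. Kcnmb1, the beta subunit that raises the calcium sensitivity of the large-conductance potassium channel in smooth muscle, read 6.11 to 8.87 in basal samples (median 7.73) and 4.81 to 5.28 in luminal samples (median 4.97). It was 2.56 higher (SE 0.16, adjusted p = 4.7e-14). Kcnma1, the pore of that channel, was 0.66 higher (SE 0.09, adjusted p = 1.1e-06), although its other probe set stayed between 3.45 and 3.57 in all 4 epithelial subpopulations. Kcnj2, an inward rectifier that holds the resting potential, read 5.19 to 7.12 in basal samples and 3.43 to 4.95 in luminal samples, a difference of 2.45 (SE 0.18, adjusted p = 2.1e-12). Kcnq5, a slowly activating voltage-gated pore subunit, was 1.67 higher (SE 0.12, adjusted p = 7.1e-13), and Kcnip3, a calcium-binding accessory protein of A-type channels, 0.76 higher (SE 0.12). Of the TRP channels, Trpv4, opened by osmotic swelling and warmth, was 1.14 higher (SE 0.13). The calcium-selective epithelial channel Trpv6 was 0.92 higher (SE 0.1), and Trpm3, a steroid- and heat-activated channel, 0.71 higher (SE 0.11). Trpv4 and Trpv6 did not overlap between the cells, and Trpm3 did.

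The members lower in basal than in luminal cells included 2 two-pore domain channels and 2 inward rectifiers. Trpc6, a diacylglycerol-activated cation channel, read 4.97 to 5.58 in basal samples (median 5.29) and 6.25 to 9.68 in luminal samples (median 7.98). It was lower by a difference of -2.64 (SE 0.17, adjusted p = 1.1e-13), with no overlap. Kcnk5, an acid-sensitive two-pore domain channel, differed by -1.10 (SE 0.11), the magnesium channel Trpm6 by -0.92 (SE 0.11), and the inward rectifier Kcnj13 by -0.90 (SE 0.16). Kcnn4, the intermediate-conductance calcium-activated potassium channel, differed by -0.67 (SE 0.08), the voltage-gated Kcnh1 by -0.64 (SE 0.11) and the two-pore domain Kcnk1 by -0.45 (SE 0.07). In these 6 genes basal and luminal samples overlapped. Kcnn4 averaged 6.08 in parous and 6.01 in nulliparous luminal Sca1-positive samples, near the basal median of 6.11. Kcnh1 averaged 6.29 in parous and 6.11 in nulliparous luminal Sca1-negative samples, near the basal median of 6.12. Trpm6 averaged 7.93 in nulliparous Sca1-negative samples and 5.6 to 5.86 in the other luminal groups, with a basal median of 5.43.

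**Figure D2:**
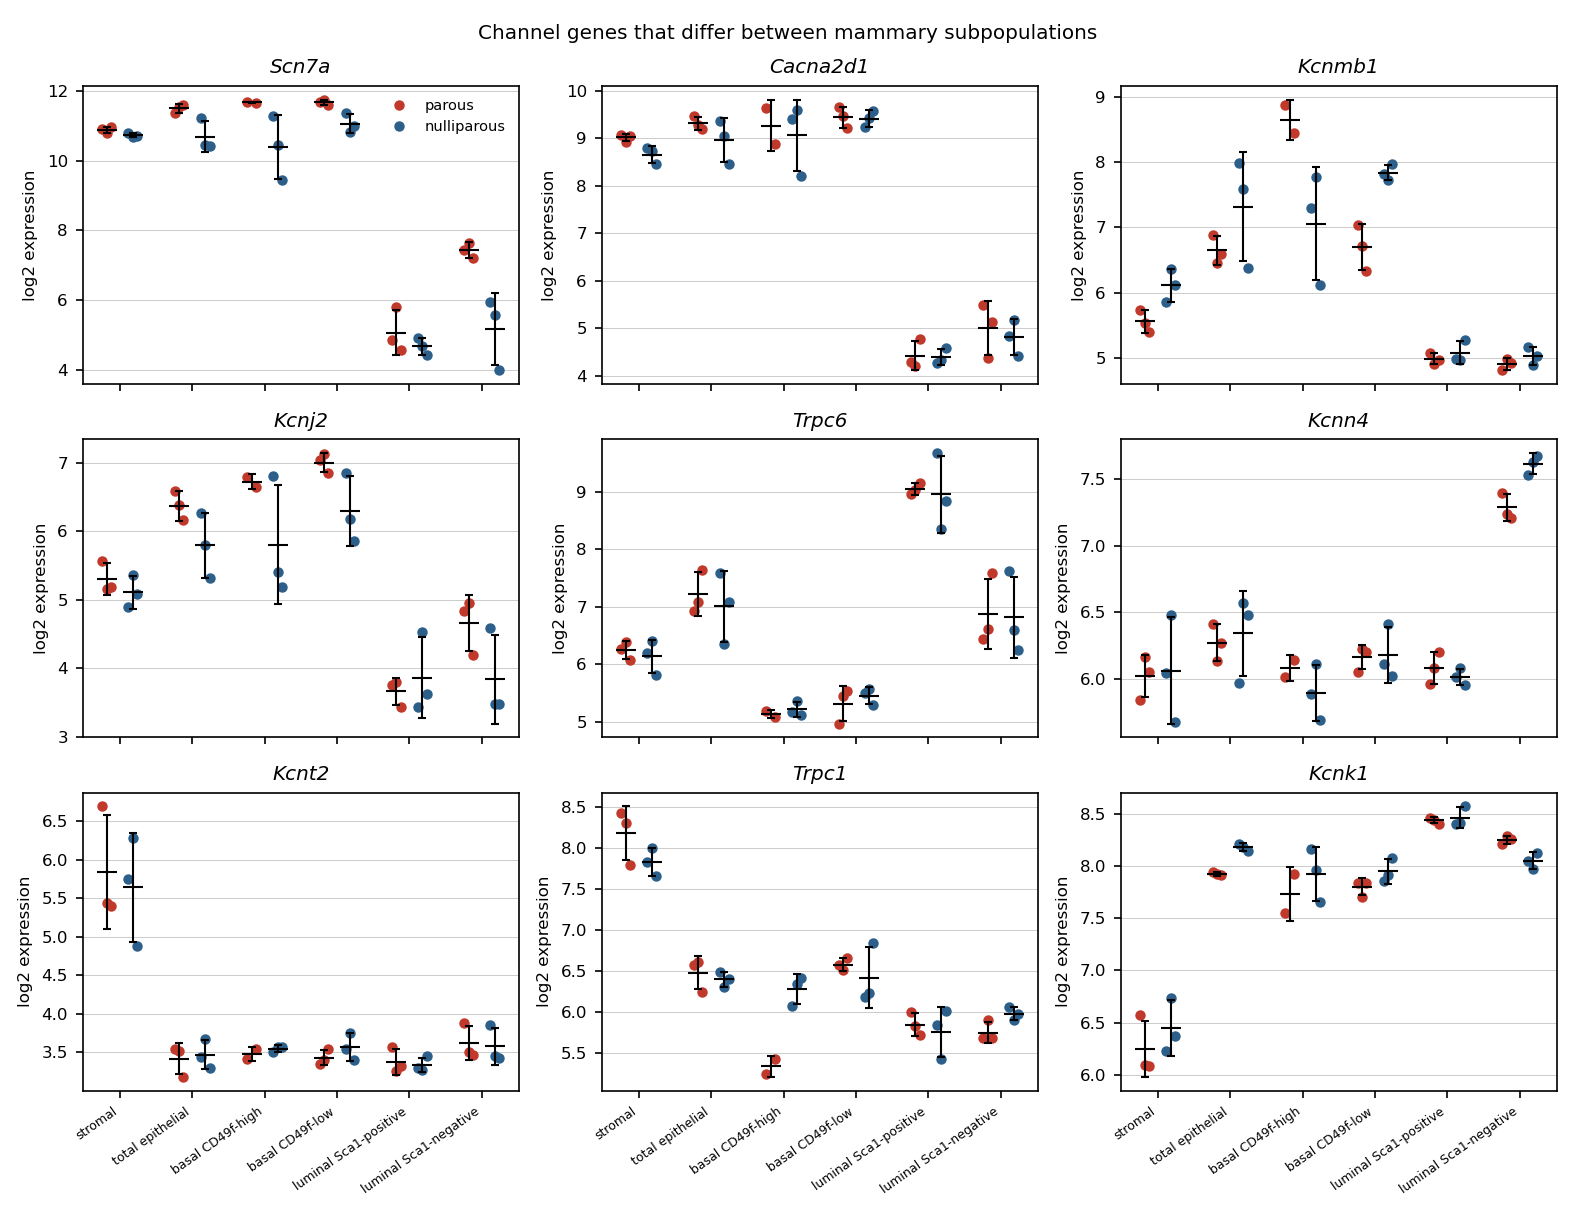
Points are single samples of 9 channel genes by subpopulation, parous (red) left of nulliparous (blue), on the log2 scale, and black marks give the mean ± SD of each group (n = 3, or 2 for parous basal CD49f-high). Scn7a, Cacna2d1, Kcnmb1 and Kcnj2 are low in luminal cells, Trpc6 and Kcnn4 peak in opposite luminal subpopulations, and Kcnt2 and Trpc1 are highest in stromal cells.

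Luminal Sca1-positive cells, which express hormone receptor genes in this series, differed from Sca1-negative cells in 12 members (8.22%), 3 higher and 9 lower, against 16.1% of all genes, of which 9.0% were higher and 7.11% lower. In 7 members the samples did not overlap, against 8.38% of all genes. Of the hormone-sensing markers 6 of 7 were higher in Sca1-positive cells and 5 of 8 luminal progenitor markers were lower. Trpc6 read 8.35 to 9.68 in Sca1-positive samples and 6.25 to 7.62 in Sca1-negative samples, a difference of 2.15 (SE 0.23, adjusted p = 3.4e-08). Kcnh1 read 6.74 to 8.35 in Sca1-positive samples and 5.79 to 6.33 in Sca1-negative samples, a difference of 1.29 (SE 0.15, adjusted p = 1e-07) that was 1.70 in parous and 0.86 in nulliparous cells. Neither gene overlapped between the cells. Kcnk1 was 0.30 higher (SE 0.1, adjusted p = 0.033), a call lost when any of 7 of the 12 samples was left out, with adjusted p up to 0.0804.

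Sca1-negative cells were the luminal cells with more Kcnk5, Kcnn4 and Trpm6. Kcnk5 read 6.24 to 6.93 in Sca1-positive samples and 7.63 to 8.32 in Sca1-negative samples, a difference of -1.43 (SE 0.16, adjusted p = 5e-08). Kcnn4 read 5.95 to 6.20 in Sca1-positive samples and 7.21 to 7.68 in Sca1-negative samples, a difference of -1.41 (SE 0.11, adjusted p = 1.7e-10). Sca1-positive and Sca1-negative samples did not overlap in either gene, and Sca1-positive Kcnn4 lay within the range of the stromal samples. Trpm6 differed by -1.19 (SE 0.15, adjusted p = 4.2e-07), by -0.05 in parous and -2.33 in nulliparous cells. Kcnj15, Kcnk6 and Kcnd2 differed by -0.50, -0.41 and -0.34. For Kcnj15 the difference was -0.85 in parous and -0.15 in nulliparous cells, and for Kcnd2 it was -0.53 in parous and -0.14 in nulliparous cells. Scn7a, high in basal cells, was also lower in Sca1-positive cells by a difference of -1.42 (SE 0.26, adjusted p = 0.00016), by -2.36 in parous and -0.49 in nulliparous cells, and so were 6 of 10 basal and myoepithelial markers, with a list median of -0.66. Their part in the Scn7a difference was not tested.

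Within the basal cells, CD49f-high samples had less of 3 members (2.05%) than CD49f-low samples and more of none, against 3.54% of all genes, of which 1.05% were higher and 2.48% lower. Trpc1, a subunit of receptor-operated cation channels, read 5.25 to 6.42 in CD49f-high samples (median 6.07) and 6.19 to 6.84 in CD49f-low samples (median 6.55), a difference of -0.69 (SE 0.13, adjusted p = 0.00217). Trpv6 differed by -0.63 (SE 0.14, adjusted p = 0.014) and Kcnq5 by -0.65 (SE 0.17, adjusted p = 0.0289). The samples overlapped in all 3 genes, and each difference was uneven between histories. It was -1.24 in parous and -0.14 in nulliparous cells for Trpc1, -1.01 in parous and -0.28 in nulliparous cells for Kcnq5, and -0.20 in parous and -1.05 in nulliparous cells for Trpv6. The Kcnq5 call was lost without CD49f-low parous replicates 1 or 2, CD49f-high parous replicate 3, or replicate 3 of either nulliparous group, with a largest adjusted p of 0.17. With the 11 basal samples fitted alone limma called none of the members, 10 being under an unadjusted p of 0.05. Of the fibroblast markers 2 of 10, and of the endothelial ones 2 of 10, were also lower in CD49f-high samples, their part in the result was not tested, and the smaller number of sorted cells cannot be told apart from the gate.

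Stromal cells, against total epithelial cells, differed in 41 members (28.1%), where 29.2% of all genes differed. The share higher was 17.1% of the members (25 genes) and 13.6% of all genes, and 16 members and 15.6% of all genes were lower. In 23 members (15.8%) the 6 stromal and 6 epithelial samples did not overlap, against 16.8% of all genes. Of the 25 genes higher in stromal cells, 15 belonged to the potassium channel families, which hold 89 of the 146 members. Kcnt2, a sodium-activated potassium channel, read 4.88 to 6.69 in stromal samples (median 5.59) and 3.18 to 3.67 in total epithelial samples (median 3.48), a difference of 2.29 (SE 0.18, adjusted p = 1.6e-11). Kcne4, an inhibitory accessory subunit, read 5.66 to 7.01 in stromal samples and 4.14 to 4.91 in epithelial samples, a difference of 1.71 (SE 0.13, adjusted p = 4.8e-12). Every stromal sample lay above every epithelial sample in both genes.

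Trpc1 read 7.66 to 8.43 in stromal samples and 6.25 to 6.61 in total epithelial samples, a difference of 1.56 (SE 0.12, adjusted p = 7.8e-12). Kcnrg, a regulator that hinders assembly of voltage-gated channels, was 1.47 higher (SE 0.19), the small-conductance calcium-activated Kcnn3 1.15 higher (SE 0.09), and Kcnj8 1.14 higher (SE 0.11). Kcnj8 is the pore of the ATP-sensitive potassium channel of vascular muscle and pericytes. Cacna1g, Trpv2, Kcna5 and Kcnab1 were 1.02, 0.92, 0.87 and 0.86 higher, and Scn2a and Scn3a, neuronal sodium channel alpha subunits, 0.73 and 0.64 higher. The 14 probe sets of Scn2a, of which the one of highest mean was used, gave stromal differences between 0.44 and 2.32. Of these 10 genes, Cacna1g alone overlapped between the cells. Beside them, 7 of 9 pericyte, 7 of 10 endothelial and 4 of 8 nerve and Schwann cell markers were higher in stromal samples, and their part in each channel's level was not tested.

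The members lower in stromal than in total epithelial cells were led by Kcnk1, at 6.09 to 6.74 in stromal samples and 7.91 to 8.21 in epithelial samples, a difference of -1.70 (SE 0.1, adjusted p = 1.3e-14). Kcnq5 differed by -1.49 (SE 0.16), Kcnh1 by -1.17 (SE 0.15), Kcnmb1 by -1.15 (SE 0.21), Trpv6 by -0.86 (SE 0.14) and Cacnb4 by -0.70 (SE 0.16), each without overlap. Trpc6, Kcnj2 and Trpv4 differed by -0.92, -0.88 and -0.75 with overlap.

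The basal-high pair Scn7a and Cacna2d1 were high in stromal cells too. Scn7a read 10.69 to 10.95 in stromal samples and 10.41 to 11.60 in total epithelial samples, a difference of -0.29 that did not pass the test (95% interval -0.83 to 0.24, adjusted p = 0.452). Cacna2d1 differed by -0.30 (95% interval -0.72 to 0.12, adjusted p = 0.3). Set directly against basal CD49f-low cells, stromal cells differed in 34 members (23.3%), 19 higher and 15 lower, against 26.4% of all genes. Kcnt2, Kcnrg, Kcne4 and Trpc1 led the rises there, Kcnt2 at 2.24, Kcnrg at 1.67 and Kcne4 at 1.59. Kcnq5, Kcnk1, Kcnj2, Kcnmb1 and Trpv6 led the falls, at -1.75, -1.52, -1.44, -1.44 and -1.40. Trpc6 was 0.80 higher in stromal than in basal CD49f-low cells (SE 0.23, adjusted p = 0.00846). Cacna2d1 was lower by a difference of -0.60 (SE 0.2, adjusted p = 0.0293), a call lost when any of 6 of the 12 samples was left out, with adjusted p up to 0.0718.

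Ion transport genes outside these families were read from 3 lists, beside which 15.5% of all genes were higher and 19.5% lower in basal than in luminal cells. In that comparison 5 of 21 sodium and potassium transport genes were higher and 5 lower. The lower ones included the epithelial sodium channel subunits Scnn1a (-2.41, SE 0.14) and Scnn1b (-1.41, SE 0.1), the sodium pump subunit Atp1b1 (-2.37, SE 0.16) and its regulator Fxyd2 (-1.48, SE 0.09). Of 23 calcium entry, pump and release genes, 6 were higher, among them the sodium-calcium exchanger Slc8a1 (0.83, SE 0.07) and the store sensor Stim1 (0.58, SE 0.09). The 4 lower ones included the Golgi calcium pump Atp2c1 (-0.61, SE 0.06). Of 30 chloride, mechanosensitive and purinergic channel genes, 3 were higher and 7 lower, with the touch channel Piezo2 at -3.19 (SE 0.17) and the endosomal chloride transporter Clcn3 at -1.98 (SE 0.1).

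Within luminal cells, the plasma membrane calcium pump Atp2b1 was lower in Sca1-positive than in Sca1-negative cells by a difference of -2.36 (SE 0.14, adjusted p = 2.2e-13). Piezo2, Clca1, Scnn1a and Fxyd2 were higher in Sca1-positive cells by 1.80, 1.62, 1.46 and 1.34. In stromal against total epithelial cells the sodium pump regulator Fxyd1 was 3.12 higher (SE 0.19), the pump subunit Atp1b2 2.39 higher (SE 0.19) and the endolysosomal channel Mcoln2 1.90 higher (SE 0.16). There 13.6% of all genes were higher and 15.6% lower. The genes of this paragraph were chosen after their values were seen. The other listed genes, including any lower in stromal cells, are not counted here.

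Between 1 and 10 channel genes were called for reproductive history in each subpopulation. A gene that was not called is not thereby shown to be unchanged. The parous samples were called different from the nulliparous ones in 1 member in stromal cells (0.685%, against 0.597% of all genes), 2 in total epithelial cells (1.37%, against 0.446%) and 10 in basal CD49f-high cells (6.85%, against 9.06%). Basal CD49f-low cells had 2 (1.37%, against 0.968%), luminal Sca1-positive cells 1 (0.685%, against 0.607%) and luminal Sca1-negative cells 3 (2.05%, against 1.00%). Samples of both histories did not overlap in 31 members (21.2%) in luminal Sca1-negative cells, against 17.7% of all genes. These 19 calls fell on 16 genes. Of the 19, 5 held whichever single sample was left out, namely Trpm6 and Scn7a in luminal Sca1-negative cells and Kcnmb1, Cacnb4 and Trpc1 in basal CD49f-high cells. In the last, leaving out 1 parous sample leaves a lone sample that is assumed to vary like the other groups. Fitting the 5 or 6 samples of 1 subpopulation alone left 2 of the calls, Trpm6 (adjusted p = 0.00264) and Scn7a (adjusted p = 0.0491) in luminal Sca1-negative cells.

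**Figure D3:**
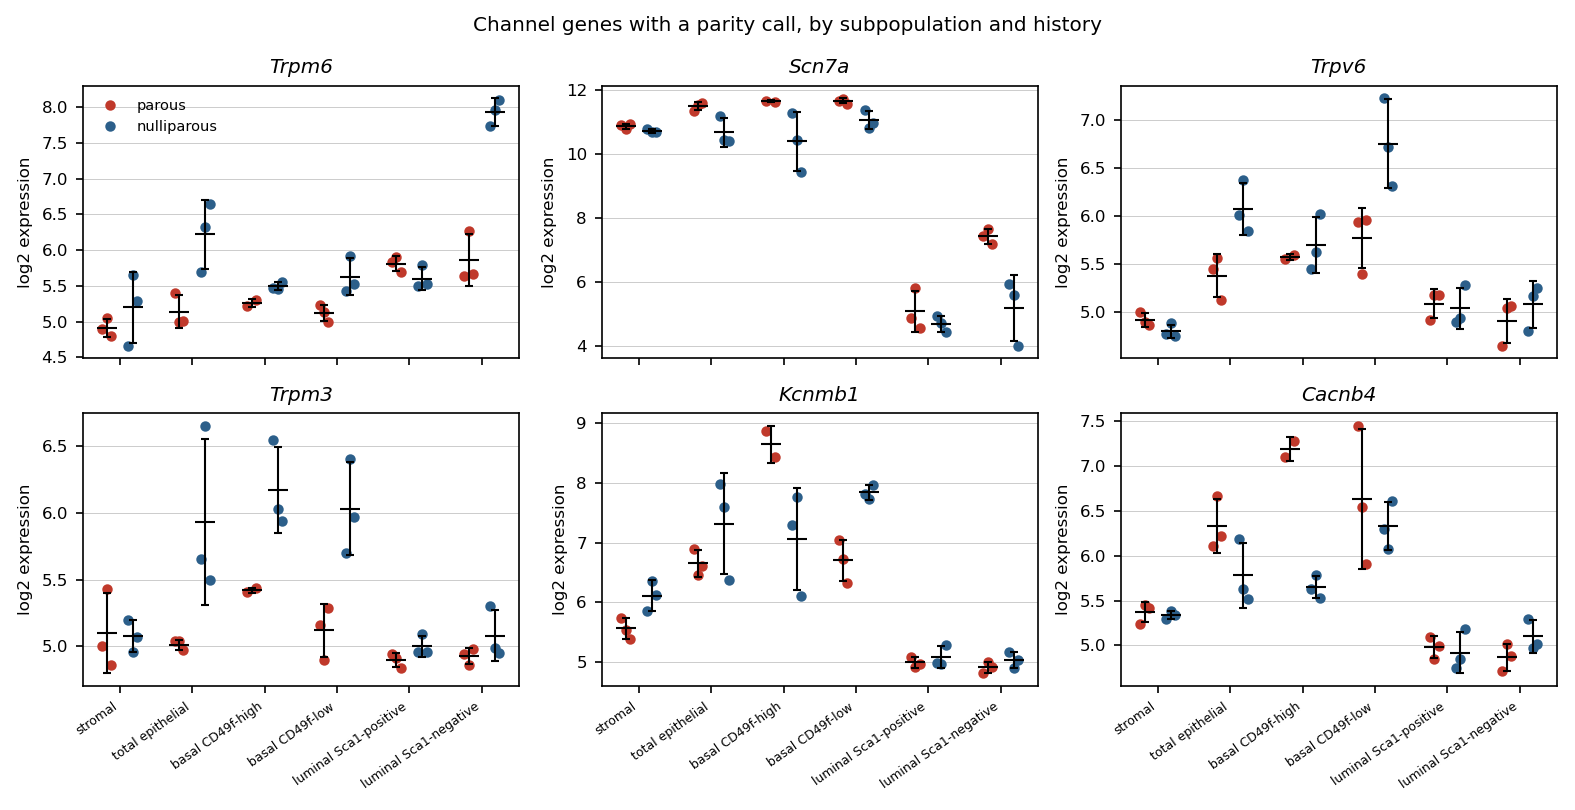
Points are single samples of 6 channel genes by subpopulation, parous (red) left of nulliparous (blue), on the log2 scale, with the mean ± SD of each group in black (n = 3, or 2 for parous basal CD49f-high). Trpm6 is lower and Scn7a higher in parous than in nulliparous luminal Sca1-negative samples, and Kcnmb1 is higher in parous basal CD49f-high samples and lower in parous basal CD49f-low samples.

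Luminal Sca1-negative cells showed the largest parity differences among the channels. Trpm6, the channel-kinase that takes up magnesium across epithelia, read 5.64, 6.27 and 5.67 in parous samples, against 7.73, 7.96 and 8.10 in nulliparous samples. The groups did not overlap, and Trpm6 fell by 2.07 on the log2 scale (difference -2.07, SE 0.21, adjusted p = 5.6e-07). In luminal Sca1-positive cells it read 5.83, 5.90 and 5.70 in parous samples and 5.50, 5.79 and 5.52 in nulliparous samples, a difference of 0.20 that did not pass (95% interval -0.22 to 0.63). Parous Sca1-negative cells lay near the Sca1-positive level of Trpm6. The parity effect on Trpm6 differed among the 6 subpopulations (moderated F test, adjusted p = 0.000201). The luminal progenitor markers averaged 9.19, 9.21 and 9.05 in parous and 9.09, 8.99 and 9.27 in nulliparous Sca1-negative samples, and 1 of the 8, Aldh1a3, was lower in parous samples (-1.22, SE 0.23). Trpm7, the related, widely expressed channel-kinase, had a difference of 0.28 there (95% interval -0.03 to 0.59, adjusted p = 0.524).

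Scn7a read 7.44, 7.65 and 7.20 in parous luminal Sca1-negative samples, against 5.94, 5.58 and 3.99 in nulliparous ones. Every parous sample was higher, the nulliparous samples were widely spread, and Scn7a rose by 2.26 (SE 0.37, adjusted p = 0.00076). Of the basal and myoepithelial markers 3 of 10 rose in the same samples, Krt5 by 1.30, Cnn1 by 1.21 and Myh11 by 0.93, with a list median of 0.36. The list averaged 7.41, 7.23 and 7.22 in parous and 6.75, 7.08 and 6.80 in nulliparous Sca1-negative samples, against 10.18 or more in basal CD49f-low samples. Of the other basal-high channels, Cacna2d1 differed by 0.19 (95% interval -0.41 to 0.78), Kcnmb1 by -0.12 (95% interval -0.74 to 0.50) and Kcnj2 by 0.82 (95% interval 0.12 to 1.52, adjusted p = 0.336). The part of the basal markers in the Scn7a rise was not tested. None of the 8 nerve and Schwann cell markers was called, and their list mean was 5.55 to 5.57 in parous and 5.59 to 5.84 in nulliparous samples.

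Scn7a had a positive parity difference in each of the other 5 subpopulations, none of which passed the test. It was 1.26 in basal CD49f-high (adjusted p = 0.0522), 0.82 in total epithelial, 0.61 in basal CD49f-low, 0.39 in luminal Sca1-positive and 0.15 in stromal cells. Parous basal CD49f-low samples read 11.68, 11.74 and 11.58, against 11.37, 10.83 and 10.99 in nulliparous samples, without overlap, as was so for 14.3% of all genes there.

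Kcnj15, an inward rectifier of transporting epithelia, read 6.76, 6.23 and 5.85 in parous luminal Sca1-negative samples, against 5.64, 5.46 and 5.55 in nulliparous ones. Every parous sample was higher, with parous replicate 1 the highest, and the rise was 0.73 (SE 0.17, adjusted p = 0.0239). The call was lost without parous replicates 1 or 2 or nulliparous replicates 2 or 3, with differences between 0.49 and 0.94 and a largest adjusted p of 0.209.

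In luminal Sca1-positive cells Kcnh1 was the only member called, higher, where 0.426% of all genes were. In 4.79% of the members and 12.9% of all genes the histories did not overlap there. This voltage-gated potassium channel read 8.14, 8.35 and 7.50 in parous samples, against 6.74, 7.21 and 6.98 in nulliparous ones. The groups did not overlap, and Kcnh1 rose by 1.02 (SE 0.21, adjusted p = 0.0106). The call was lost without parous replicates 1 or 2 or nulliparous replicate 1, with differences between 0.84 and 1.27 and a largest adjusted p of 0.127. In Sca1-negative cells the difference was 0.18 (95% interval -0.24 to 0.60). Krt14 rose by 1.54 in the same Sca1-positive samples, the 1 of 10 basal markers called, and the endothelial markers averaged 6.22, 5.99 and 5.83 in parous and 5.55, 5.27 and 5.47 in nulliparous samples, with none of 10 called and 4 at an unadjusted p under 0.05. Their part was not tested.

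Both members called in basal CD49f-low cells were TRP channels that fell, where 0.286% of all genes were higher and 0.682% lower. Trpv6 read 5.94, 5.40 and 5.96 in parous samples, against 7.22, 6.72 and 6.31 in nulliparous ones, a difference of -0.99 (SE 0.19, adjusted p = 0.00573). Trpm3 read 5.16, 4.90 and 5.29 in parous samples, against 5.70, 6.40 and 5.97 in nulliparous ones, a difference of -0.91 (SE 0.2, adjusted p = 0.023). Neither gene overlapped between the histories, as was so for 14.3% of all genes in this subpopulation. The Trpv6 call was lost without parous replicate 2 or nulliparous replicate 1 (adjusted p up to 0.0735). The Trpm3 call was lost without parous replicates 1 or 2 or nulliparous replicates 2 or 3 (adjusted p up to 0.2). Beside them the fibroblast markers averaged 6.76, 6.64 and 6.47 in parous and 7.34, 7.45 and 7.10 in nulliparous samples, with Lum and Fbln2 of the 10 called lower. Their part was not tested.

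Trpm3 and Trpm6 were the members called in total epithelial cells. Trpm3 read 5.04, 5.04 and 4.97 in parous samples, against 5.65, 6.65 and 5.50 in nulliparous ones, a difference of -0.92 (SE 0.2, adjusted p = 0.0295). Trpm6 read 5.40, 5.00 and 5.01 in parous samples, against 5.70, 6.32 and 6.64 in nulliparous ones, a difference of -1.08 (SE 0.21, adjusted p = 0.00852). The histories did not overlap in either gene, as was so for 15.0% of all genes in this subpopulation. The Trpm3 call was lost without any 1 parous replicate or nulliparous replicate 2 (adjusted p up to 0.41). The Trpm6 call was lost without replicates 2 or 3 of either history (adjusted p up to 0.0945). Trpv6 differed in the same direction there by -0.70 (SE 0.19), short of the test (adjusted p = 0.129).

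Basal CD49f-high cells held 10 of the 19 parity calls, 6 higher and 4 lower, in a subpopulation where 4.01% of all genes were higher and 5.05% lower. Kcnmb1 read 8.87 and 8.44 in parous samples, against 7.30, 7.77 and 6.11 in nulliparous ones, and rose by 1.59 (SE 0.34, adjusted p = 0.00279). Cacnb4 read 7.10 and 7.28 in parous samples, against 5.63, 5.78 and 5.53 in nulliparous ones, and rose by 1.54 (SE 0.26, adjusted p = 0.00028). Trpc1 read 5.25 and 5.43 in parous samples, against 6.07, 6.35 and 6.42 in nulliparous ones, a difference of -0.94 (SE 0.19, adjusted p = 0.00153). None of the 3 genes overlapped between histories, as was so for 31.5% of the members and 27.7% of all genes in this subpopulation, and nulliparous replicate 3 was the low sample for Kcnmb1.

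Of the basal and myoepithelial markers 4 of 10 rose in the same parous basal CD49f-high samples, the oxytocin receptor gene Oxtr by 1.43, Myh11 by 0.89, Tagln by 0.87 and Cnn1 by 0.80. The list averaged 10.49 and 10.67 in parous and 10.35, 9.99 and 9.91 in nulliparous samples. Trpc1 was highest in stromal cells, and the fibroblast list averaged 6.28 and 6.17 in parous and 6.84, 6.54 and 6.47 in nulliparous samples. The luminal progenitor list averaged 7.65 and 7.60 in parous and 7.25, 6.90 and 6.30 in nulliparous samples, with 1 of 8 called higher. The pericyte list (2 of 9 called higher) and the adipocyte list (1 of 6 called higher) were also higher in every parous sample, and the hormone-sensing list (1 of 7 called lower) was lower, at 6.55 in both parous samples and 6.70 to 6.83 in nulliparous ones. The part of these lists in the channel differences was not tested. With the 5 samples of this subpopulation alone, limma called no member and no gene, 12 members being under an unadjusted p of 0.05, and Kcnmb1, Cacnb4 and Trpc1 had adjusted p of 0.334, 0.0892 and 0.184.

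The other 7 calls in basal CD49f-high cells were smaller. Kcnf1, Kcnk7, Kcna7 and Kcnj9, potassium channel genes of 3 families, rose by 0.56, 0.56, 0.51 and 0.39, and Trpm3, Trpm7 and Kcnab1 differed by -0.74, -0.54 and -0.45. Each of these 7 calls was lost without at least 1 sample, with a largest adjusted p between 0.136 and 0.379. Both parous replicates ended the calls of Trpm3, Trpm7, Kcnf1 and Kcna7. Parous replicate 2 ended those of Kcnab1 and Kcnj9, and parous replicate 3 that of Kcnk7. Among nulliparous samples, replicate 1 ended the calls of Trpm3 and Kcnk7, replicate 2 those of Trpm3, Trpm7, Kcnf1, Kcnk7 and Kcnj9, and replicate 3 those of Trpm7, Kcnf1, Kcna7 and Kcnj9.

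In stromal cells Kcnn3 was the only member called. It read 6.67, 6.84 and 6.79 in parous samples, against 6.98, 7.57 and 7.42 in nulliparous ones, a difference of -0.55 (SE 0.12, adjusted p = 0.0207). The histories did not overlap, as was so for 15.9% of all genes in stromal cells. The call was lost without parous replicates 1 or 3 or nulliparous replicates 2 or 3, with differences between -0.72 and -0.43 and a largest adjusted p of 0.201. The endothelial markers averaged 7.06, 6.78 and 6.78 in parous and 7.71, 7.32 and 7.22 in nulliparous stromal samples, with Pecam1 called lower (-1.55, SE 0.36). The basal and myoepithelial markers averaged 7.62, 7.53 and 7.39 in parous and 7.97, 7.99 and 7.98 in nulliparous samples, with Krt14 (-2.0, SE 0.22) and Krt5 (-1.85, SE 0.18) called lower. The fibroblast markers averaged 9.88 to 10.02 in parous and 10.08 to 10.41 in nulliparous samples, with 1 of 10 called lower, and the lymphocyte markers averaged 4.67 to 4.86 in parous and 4.87 to 5.10 in nulliparous samples. The part of these lists was not tested.

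The parity effect itself differed among the 6 subpopulations in 5 members (3.42%), against 2.80% of all genes. Besides Trpm6 these were Kcnmb1, Trpc1, Cacnb4 and Cacna1g. The contrast between the basal subpopulations was not tested by itself. Kcnmb1 read 7.04, 6.72 and 6.33 in parous basal CD49f-low samples, against 7.82, 7.73 and 7.97 in nulliparous ones, a difference of -1.14 (SE 0.3) that did not pass on its own (adjusted p = 0.0631), while in CD49f-high cells it rose by 1.59. Its difference was -0.67 in total epithelial and -0.55 in stromal cells, neither of which passed (adjusted p = 0.635 and 0.621). The F test gave an adjusted p of 0.00659 for Kcnmb1, and 0.0515 without parous basal CD49f-high replicate 2. Trpc1 differed by -0.94 in basal CD49f-high cells (F test, adjusted p = 0.0223). Its stromal difference of 0.35 had overlapping samples and was not called by limma (adjusted p = 0.527). Cacnb4 rose in basal CD49f-high cells and had a difference of 0.30 in basal CD49f-low cells and of -0.22 in luminal Sca1-negative cells (F test, adjusted p = 0.0242).

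The F test call of Trpc1 was lost without either parous sample or nulliparous replicates 2 or 3 of basal CD49f-high cells. That of Cacnb4 was lost without either parous sample or nulliparous replicate 3 of the same cells. Cacna1g had differences of 0.44 in stromal, -0.51 in total epithelial and -0.61 in basal CD49f-low cells. It was not called by limma in any of these, with adjusted p of 0.297 in stromal and 0.0546 in basal CD49f-low cells. Its F test (adjusted p = 0.0443) was lost on leaving out any of 22 of the 35 samples, with adjusted p up to 0.152. Between luminal and basal cells, the parity effect differed in Cacnb4 alone of the members (0.685%, against 2.04% of all genes, 0.692% of them lower), by -1.01 (SE 0.24, adjusted p = 0.0192).

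**Figure D4:**
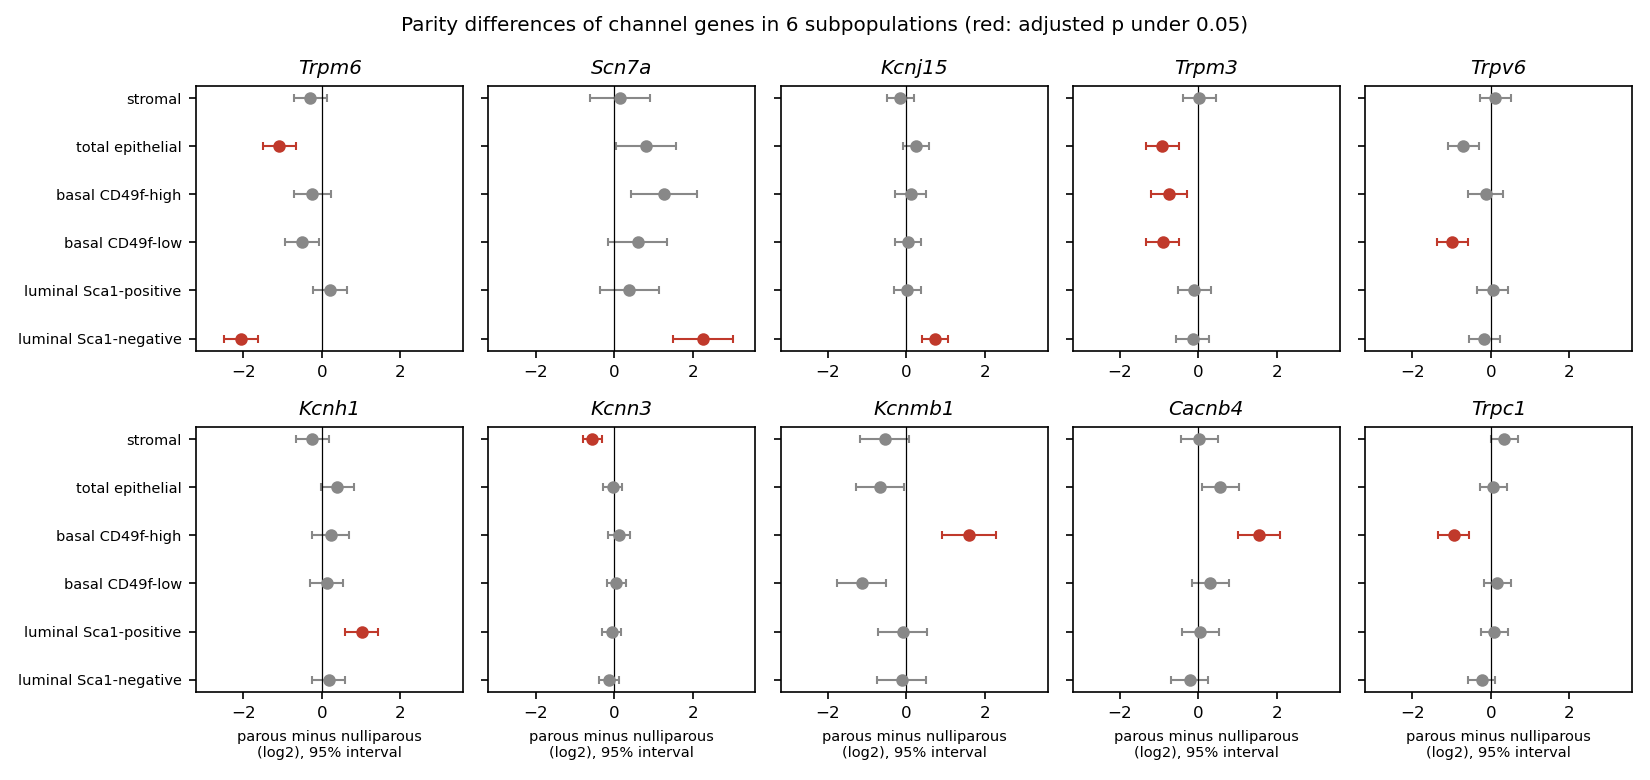
Points are parity differences (parous minus nulliparous, log2) of 10 channel genes in the 6 subpopulations, with the 95% interval of the fit as bars, red where the adjusted p was under 0.05 and grey otherwise. Trpm6 and Scn7a stand out in luminal Sca1-negative cells at -2.07 and 2.26, and Kcnmb1 lies on opposite sides of 0 in the basal subpopulations.

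Averaged over the 4 sorted epithelial subpopulations, 6 members were called with parity (4.11%), against 6.20% of all genes, of which 2.72% were higher and 3.49% lower. Scn7a was 1.13 higher in parous cells (SE 0.19, adjusted p = 0.0003), Cacnb4 0.42 higher (SE 0.12, adjusted p = 0.031) and Kcnh1 0.38 higher (SE 0.11, adjusted p = 0.0266). Trpm6 differed by -0.65 (SE 0.11, adjusted p = 0.00023), Trpm3 by -0.48 (SE 0.11, adjusted p = 0.00445) and Cacna1g by -0.31 (SE 0.08, adjusted p = 0.0165). The mean hides uneven effects. Trpm6 differed by -2.07 in luminal Sca1-negative and by 0.20 in luminal Sca1-positive cells. Cacnb4 differed by 1.54 in basal CD49f-high and by 0.30 in basal CD49f-low cells. Trpm3 differed by -0.91 in basal CD49f-low and -0.74 in basal CD49f-high cells, and was called in neither luminal subpopulation. Its parity effect in luminal minus basal cells was 0.69, which did not pass in limma (adjusted p = 0.087). The call of Cacnb4 was lost when any of 9 of the 23 samples was left out (adjusted p up to 0.0685) and that of Kcnh1 for any of 6 (adjusted p up to 0.0995), while the other 4 held without any 1 sample.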

How the data were processed

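Each probe set has a log2 value deposited by the authors. Per the submitters' processing notes the affy package was used; for its version, the normalization and the build, the sources used here give nothing. No detection calls were used, and the number of arrays limits the precision. One parous basal CD49f-high sample was excluded by the submitters as not hybridizing properly, per the labels. Of 34760 probe sets, 21640 carried 1 gene symbol, 1321 several and 11799 none; 4 probe sets naming a channel gene with other genes were left out. All 35 samples were fitted in limma 3.58.1 (R 4.3.3) as 12 group means with a moderated variance trend, and the script was tested on simulated data.

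Members and lists were chosen with earlier results of these data known. Genes were named as the 10 largest rises and falls among called members between subpopulations, every member called for parity, the member of highest mean in each subpopulation (not printed, since probe sets are not compared in level), and a panel; uncalled parity values of Scn7a, Trpm6, Trpm7, Trpv6, Kcnmb1, Kcnh1, Cacnb4, Trpc1, Cacna1g, Kcnj2 and Cacna2d1, and the called Scn1a, Cacnb1 and Kcnd2, were chosen after their values were seen, as were values of single marker and transport genes. Alternatives were array weights, no trend, quantile normalization, no dim genes, mean of probe sets, a random block by pool, the replicate block, the compared samples alone, and each sample left out; leaving out nulliparous samples numbered 1 or 3 throughout was chosen after seeing the data.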

Additional observations from a re-analysis of the deposited data

Results flagged for a closer look

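The parity effect of 5 channel genes differed among the 6 subpopulations by a moderated F test in limma, with Benjamini-Hochberg adjustment over all genes. Trpm6 had an adjusted p of 0.000201, with a difference of -2.07 in luminal Sca1-negative cells and of 0.20 in luminal Sca1-positive cells. Kcnmb1 had an adjusted p of 0.00659, with differences of 1.59 in basal CD49f-high and -1.14 in basal CD49f-low cells, the latter not called on its own. Trpc1 had an adjusted p of 0.0223, with differences of -0.94 in basal CD49f-high and 0.35 in stromal cells. The stromal one was not called by limma (adjusted p = 0.527). Cacnb4 had an adjusted p of 0.0242, and its parity effect in luminal minus basal cells was -1.01 (SE 0.24, adjusted p = 0.0192). Cacna1g had an adjusted p of 0.0443, with differences of 0.44 in stromal and -0.61 in basal CD49f-low cells. Neither was called by limma on its own (adjusted p = 0.297 and 0.0546). The F test calls of Kcnmb1, Trpc1, Cacnb4 and Cacna1g were each lost when certain single samples were left out, as given above.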

How the results depend on the processing

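Of 2924 alternative values of the named genes, 2687 kept their direction and their side of the threshold, 217 lost the call, 17 gained it and 3 turned round. Cacnb4 in parity of basal CD49f-low cells turned to -0.1038 without parous replicate 1 (range without 1 sample -0.1038 to 0.67), and Trpv6 in parity of basal CD49f-high cells to 0.03212 without nulliparous replicate 3, also when that number was left out throughout (range -0.25 to 0.03212). Counts of called channel genes moved as follows. Array weights gave 1 call instead of 3 for basal CD49f-high against CD49f-low and 3 instead of 10 for parity in basal CD49f-high cells. Leaving out dim genes gave 26 instead of 41 for stromal against total epithelial, 4 instead of 2 for parity in basal CD49f-low and 37 instead of 57 for any difference among sorted cells, on fewer genes. With the compared subpopulations alone, limma called 0 for basal CD49f-high against CD49f-low (10 under an unadjusted p of 0.05) and for parity in stromal (14), total epithelial (13), basal CD49f-high (12), basal CD49f-low (12) and luminal Sca1-positive cells (1), on fewer samples. Parity in luminal Sca1-positive cells also gave 0 without nulliparous replicate 1 or 3 throughout, and parity in stromal cells 0 without replicate 3. Leaving out 1 sample gave 30 to 39 calls for basal against luminal, 9 to 13 for Sca1, 2 to 5 for CD49f, 35 to 43 for stromal against total epithelial, 32 to 38 for stromal against basal CD49f-low, 51 to 61 for any difference among sorted cells and 2 to 8 for differing parity effects. For parity it gave 0 to 1 in stromal, 0 to 3 in total epithelial, 2 to 4 in luminal Sca1-negative, 0 to 1 in luminal Sca1-positive, 0 to 3 in basal CD49f-low, 5 to 15 in basal CD49f-high, 4 to 9 in the mean and 1 to 3 in luminal against basal. The replicate block gave 6 instead of 3 calls for CD49f, 4 instead of 2 for parity in basal CD49f-low and 2 instead of 1 for parity in luminal against basal. Same-numbered deviations correlated at 0.012 to 0.338 (median 0.101) in 85 pairs within a history, 43 of them above 0.1. Across histories they correlated at -0.05 to 0.225 (median 0.068) in 17 pairs, 4 of them above 0.1. The labels do not give the numbers as pairs. The main fit took the samples as independent, which these correlations do not show. Within a history, 35 of 35 samples deviated most like those of their own number. Across histories within a subpopulation, 25 of 34 did. Both are hints from the data only. The causes of these moves were not tested.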

Other observations

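Of the ion transport genes outside the channel families, Fxyd2 and Scnn1a are described here, chosen after their values were seen. Parity calls covered 0.607% of all genes in luminal Sca1-positive, 1.00% in luminal Sca1-negative and 0.446% in total epithelial cells. Calls among the other listed genes there are not counted, and fits without single samples are not given for either gene. Fxyd2, a regulator of the sodium pump, rose in parous luminal Sca1-positive cells by 1.55 (SE 0.18, limma adjusted p = 6.55e-06), in luminal Sca1-negative cells by 1.11 (SE 0.18) and in total epithelial cells by 0.85 (SE 0.18). Its parity effect was 1.00 larger in luminal than in basal cells (SE 0.19, adjusted p = 0.00263). Scnn1a, the alpha subunit of the epithelial sodium channel, rose by 1.16 in parous luminal Sca1-negative cells (SE 0.27, adjusted p = 0.0262).

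In parous basal CD49f-high cells, where 9.06% of all genes were called, 3 of 23 calcium transport, 2 of 21 sodium and potassium transport and 2 of 30 chloride and other channel genes were called. These calls did not hold with the 5 samples of that subpopulation alone, where limma called no gene. The calcium-activated chloride channel Ano1 rose by 1.44 (SE 0.3, adjusted p = 0.00259), the sodium pump subunit Atp1b1 by 1.20 (SE 0.35) and the sodium-calcium exchanger Slc8a1 by 1.01 (SE 0.14, adjusted p = 3.61e-05). The calcium pump Atp2b1 differed by -0.80 (SE 0.21) and the sodium pump regulator Fxyd5 by -1.37 (SE 0.39). In stromal and basal CD49f-low cells limma called none of the 23, 21 and 30 genes of the 3 lists, with 4, 1 and 2 under an unadjusted p of 0.05 in stromal and 0, 2 and 0 in basal CD49f-low cells. Of all genes, 0.597% were called in stromal and 0.968% in basal CD49f-low cells, so lists of this size would hold few calls or none.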
